A study of Mus musculus with 9 samples.

Results

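The inflammatory cytokine pathway genes described here were 10 genes of the mouse hippocampus that are linked to epilepsy. They were the ligands Il1a, Il1b, Tnf, Hmgb1 and Tgfb1, the receptors Il1r1 and Tlr4, the inflammasome genes Nlrp3 and Casp1, and the NF-kappaB inhibitor Nfkbia. They were selected by name from a list drawn up with earlier results of these data known, and each name matched 1 of the 54532 genes in the count table. All 10 passed the filter on low counts, as did 19782 genes in all.

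Interleukin-1 and tumor necrosis factor are released by glia and infiltrating immune cells after seizures, and they raise the excitability of neurons. Pro-interleukin-1 beta is made inactive and is cut to its active form by caspase-1, which is itself activated in the NLRP3 inflammasome. HMGB1, a nuclear protein released from stressed cells, signals through TLR4, and both TLR4 and the interleukin-1 receptor lead to NF-kappaB, which drives transcription of cytokine genes and of its own inhibitor. TGF-beta 1 is secreted in a latent form, and in the brain it is known for maintaining microglia and for the astrocyte response to leakage of the blood-brain barrier.

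The libraries came from N4 Ube3a m-/p+ mice, a model of Angelman syndrome in which the maternal copy of Ube3a is mutated and the paternal copy is silenced in neurons. The 5 Ant-134 mice received a locked nucleic acid oligonucleotide against miR-134 into the cerebral ventricle on postnatal day 21, and the 4 Scr mice received a scrambled oligonucleotide. All mice then underwent audiogenic seizure testing on postnatal days 22, 24 and 26, and the brain was removed 24 h after the last. Each library was made from the hippocampus of 1 mouse on the injected side, so the comparison is of hippocampal RNA levels between Ant-134 and Scr mice. Only mice alive after the testing were sampled, and the study reported a non-significant tendency toward better survival with Ant-134. Seizure severity per mouse was not analysed here, so an effect of the treatment on these genes and a difference in seizures or survival between the groups cannot be told apart. Both groups carried the mutation and both were tested for seizures, and wild-type or untested mice were not analysed here, so no value below is a change from a healthy or unstimulated level.

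The libraries held between 28583298 and 41978113 counts on genes. Ube3a, mutated in both groups, was at 90.2 ± 6.26 CPM (counts scaled to the TMM-normalized total of the library, SD, n = 5) in Ant-134 and at 92.4 ± 4.81 CPM (n = 4) in Scr. The hippocampal label was checked against 7 markers of principal neurons, none of which was at 0 and whose summed level was between 989 and 1154 CPM in Ant-134 and between 901 and 1034 CPM in Scr. Choroid plexus markers varied most among mice, from 66.9 to 2571 CPM in Ant-134 and from 78.6 to 2022 CPM in Scr. The quasi-likelihood test of edgeR put 827 genes past an unadjusted threshold of 0.05 and 0 past the adjusted one. DESeq2, with no filter before the fit but with its default filtering of low genes at the adjustment, put 16 past the adjusted one.

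The sequence targeted by the treatment is given first, because it bears on which of the 10 transcripts could carry a matching site. Mature mmu-miR-134-5p (RefSeq, GRCm38.p6, chr12:109734145-109734166, plus strand) is shown with its seed, bases 2 to 8, in capitals.
mmu-miR-134-5p: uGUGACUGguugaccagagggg
A site was taken as a match to CAGTCAC, the complement of the seed, or to AGTCACA, the complement of bases 2 to 7 followed by A, on the transcript strand of the longest protein-coding 3' UTR in GENCODE M21, and overlapping matches were counted once. Of the 10 genes, Il1r1 alone held a site, whereas 19.5% of 15278 genes tested with an annotated 3' UTR held at least 1. The 3 sites of Il1r1 lie in its 3' UTR of 3864 bases, at chr1:40313476-40313482, chr1:40313931-40313937 and chr1:40315714-40315721 on the plus strand of GRCm38. They are printed in that order with the match in capitals, and the last is an 8-base match to both patterns.
Il1r1 site a: tcccagtaaaaCAGTCACgaaccaaacct
Il1r1 site b: tcactcttctgCAGTCACtttagctttct
Il1r1 site c: gttcccaggggCAGTCACAgaggatgaaat
The 3' UTRs of the other 9 genes were shorter, from 88 bases in Casp1 and 135 in Tgfb1 to 2035 in Hmgb1. A match describes the letters of the transcript and was not measured as binding.

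Of the 10 genes, 2 were lower in Ant-134 at an unadjusted p value below 0.05, Tgfb1 and Nlrp3, beside 2.69% of all genes tested that were lower at this threshold and 4.18% that passed it in either direction. None of the 10 was higher, beside 1.49% of all genes. DESeq2 without a filter also called 2 of the 10 lower, beside 1.66% of 37435 genes lower and 2.74% in either direction. Log2 fold changes were negative for 7 of the 10, beside 48.8% of all genes, and their median was -0.25 against 0.0026 over all genes tested. Per mouse, the median log2 deviation of the 10 genes from the Scr mean was -0.29, -0.19, -0.14, -0.24 and -0.32 in Ant-134 replicates 1 to 5. In Scr replicates 1 to 4 it was 0.27, -0.14, 0.045 and -0.16, so the groups overlapped. After Benjamini-Hochberg adjustment over all 19782 genes no member passed, with adjusted p values of 0.897 for Tgfb1, 0.998 for Nlrp3 and 0.998 or more for the others. In whole tissue, fewer cells of a type and less RNA per cell cannot be told apart.

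**Figure D1:**
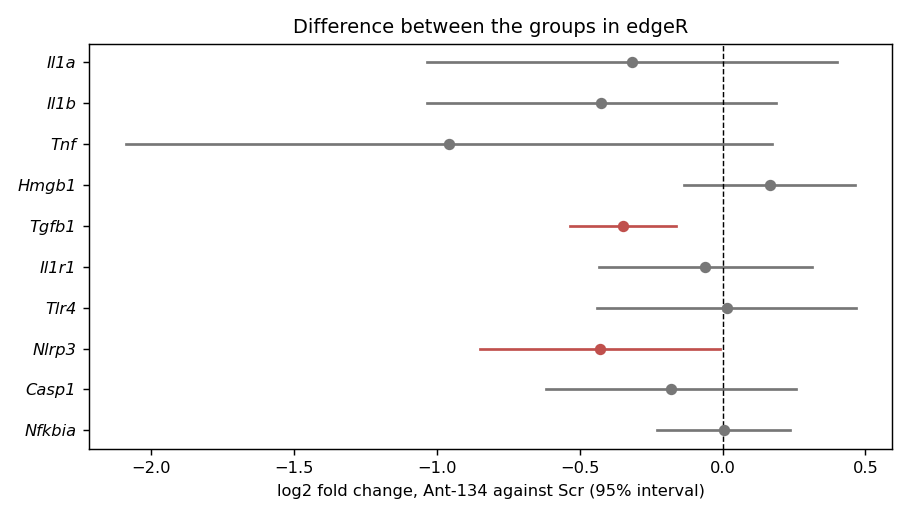
The log2 fold change of each gene, Ant-134 against Scr, from edgeR's fit over 19782 genes, with its 95% interval as a line. Red marks an unadjusted p value below 0.05, and the intervals of Tgfb1 (-0.53 to -0.16) and Nlrp3 (-0.85 to -0.010) lie below 0, while those of the other 8 genes span it.

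Levels were compared between genes in FPKM, which scales counts by gene length. In Scr, Nfkbia had the highest mean at 15.0 ± 1.74 FPKM (SD, n = 4), followed by Hmgb1 at 9.16 ± 1.34 and Tgfb1 at 2.24 ± 0.209. Below them came Il1b at 1.80 ± 0.864, Casp1 at 1.58 ± 0.251 and Il1r1 at 1.24 ± 0.352 FPKM. The lowest were Nlrp3 at 0.675 ± 0.127, Il1a at 0.580 ± 0.260, Tnf at 0.425 ± 0.254 and Tlr4 at 0.293 ± 0.0702 FPKM. The ranges of Nfkbia and Hmgb1 did not overlap in either group, nor did those of Hmgb1 and Tgfb1. Every later pair of neighbors in this order had overlapping ranges in Scr, and in Ant-134 the ranges of Il1r1 and Nlrp3 did not overlap. Nfkbia and Hmgb1, the inhibitor and the alarmin, were above the other 8 genes in every mouse.

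**Figure D2:**
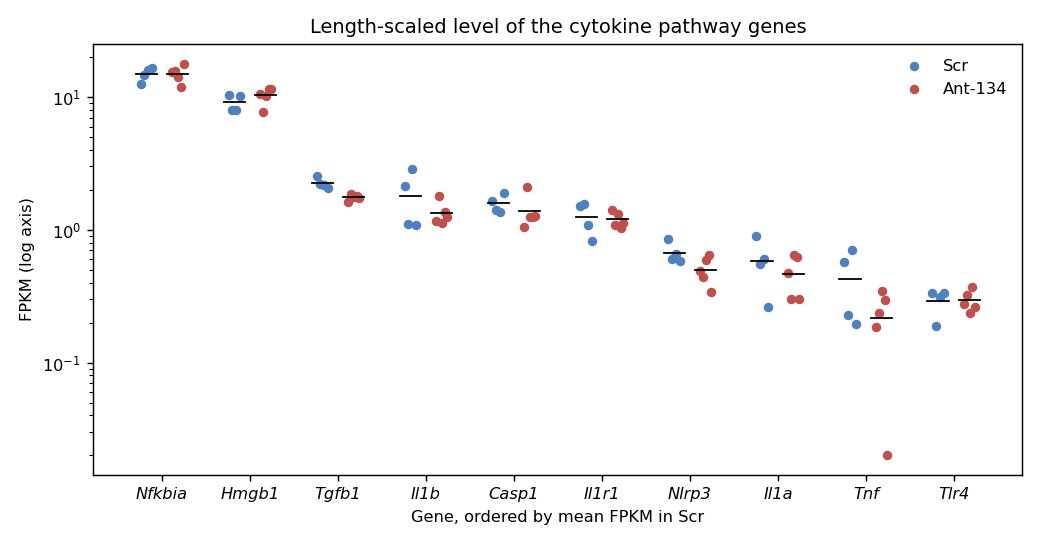
FPKM on a log axis for the 10 genes, ordered by their mean in Scr, with 1 point per mouse and a black line at each group mean. Nfkbia and Hmgb1 stand apart from the rest, and the Tnf point at 0.0201 FPKM is 1 count in 1 Ant-134 mouse.

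Tgfb1 (ENSMUSG00000002603, chr7:25687002-25705077, plus strand), which encodes TGF-beta 1, had the smallest p value of the 10 genes. In Ant-134 replicates 1 to 5 it was at 8.23, 9.41, 9.04, 9.20 and 8.87 CPM. In Scr replicates 1 to 4 it was at 12.9, 11.2, 11.03 and 10.5 CPM. Every Ant-134 mouse was below every Scr mouse, which was true of 0.895% of all genes tested. No member had every Ant-134 mouse above every Scr mouse, as 0.647% of all genes did. The mean was 8.95 ± 0.450 CPM (SD, n = 5) against 11.4 ± 1.04 CPM (n = 4), a log2 fold change of -0.35 (SE 0.0869, edgeR p = 0.00120, adjusted p = 0.897, exact permutation p = 0.00794). The exact test was two-sided over all splits of the mice, and 0.00794 is the smallest p value it can give. Counts were between 254 and 475. The coefficient of variation was 5.03% in Ant-134, where counting alone gives 5.90%, and 9.13% in Scr, where counting alone gives 4.97%. By p value Tgfb1 was number 26 of all genes tested. In all 9 fits that left out 1 mouse Tgfb1 remained lower and past the unadjusted threshold, with log2 fold changes from -0.39 to -0.29.

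Il1b (ENSMUSG00000027398, chr2:129364570-129371139, minus strand) encodes the secreted interleukin-1 beta precursor. It was at 2.25, 3.43, 2.17, 2.62 and 2.38 CPM in Ant-134 replicates 1 to 5. The Scr mice, in the order of their replicate numbers, had 4.11, 2.15, 5.54 and 2.11 CPM. Scr replicates 1 and 3 were above all Ant-134 mice and Scr replicates 2 and 4 were below all of them, so the groups overlapped. The log2 fold change was -0.42 (SE 0.280, edgeR p = 0.156, exact permutation p = 0.365), with an interval from -1.03 to 0.19. It was -0.10 without Scr replicate 3, and -0.60 without Scr replicate 2 or without Scr replicate 4, and in each of the last pair edgeR's unadjusted threshold was passed. The antisense gene Il1bos overlaps Il1b, and since the strand setting of the counting is not given in the sources used here, reads of the pair may be mixed.

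Il1a (ENSMUSG00000027399, chr2:129299610-129309972, minus strand) encodes interleukin-1 alpha, which is active without cleavage by caspase-1. It was at 0.945, 0.598, 1.28, 1.24 and 0.596 CPM in Ant-134 replicates 1 to 5. Scr replicates 1 to 4 had 1.79, 1.11, 1.203 and 0.527 CPM. Scr held both the highest and the lowest mouse, on counts between 18 and 57. Its log2 fold change was -0.32 (SE 0.335, edgeR p = 0.362, exact permutation p = 0.571). It was -0.042 without Scr replicate 1, the highest mouse, and -0.55 without Scr replicate 4, the lowest. Gm14023, on the opposite strand, overlaps it.

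Tnf (ENSMUSG00000024401, chr17:35199381-35202007, minus strand) encodes tumor necrosis factor. In Ant-134 replicates 1 to 5 it was at 0.305, 0.390, 0.569, 0.491 and 0.0331 CPM, the last being 1 count. Scr replicates 1 to 4 had 0.940, 0.378, 1.17 and 0.322 CPM. As for Il1b, Scr replicates 1 and 3 were above all Ant-134 mice, while Scr replicates 2 and 4 lay among them. The log2 fold change of -0.96 (SE 0.523) was the furthest from 0 of the 10 genes and had the widest interval, from -2.09 to 0.17 (edgeR p = 0.0900, exact permutation p = 0.214). The fold change was -0.59 without Scr replicate 3, and -1.19 without Scr replicate 4, where the unadjusted threshold was passed. Counts were between 1 and 40 per library, and the coefficient of variation was 58.0% in Ant-134 and 59.6% in Scr, where counting alone gives 29.6% and 20.3%.

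Hmgb1 (ENSMUSG00000066551, chr5:149046702-149184489, minus strand) encodes the alarmin that signals through TLR4. It was at 53.2, 39.1, 51.5, 58.8 and 58.1 CPM in Ant-134 replicates 1 to 5. The 4 Scr mice, in the same order, were at 52.5, 40.7, 40.7 and 52.0 CPM. Ant-134 replicate 2 was the lowest mouse, and the highest pair was in Ant-134. Its log2 fold change was 0.17 (SE 0.133, edgeR p = 0.245, exact permutation p = 0.286), and without Ant-134 replicate 2 it was 0.25 and past the unadjusted threshold. The fold change was 0.106 without Scr replicate 2 and 0.107 without Scr replicate 3. Hmgb1 has processed copies elsewhere in the genome, of which Hmgb1-ps2 alone received 146 to 325 counts per library, and it overlaps Uspl1 and several noncoding genes, so its level is uncertain.

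Il1r1 (ENSMUSG00000026072, chr1:40225080-40317257, plus strand) encodes the signaling receptor of both interleukin-1 ligands and carries the 3 sites printed above. In Ant-134 replicates 1 to 5 it was at 9.05, 7.02, 8.47, 6.68 and 7.21 CPM. In Scr replicates 1 to 4 it was at 9.72, 10.02, 6.95 and 5.30 CPM, so the Ant-134 mice all lay within the span of the Scr mice. The log2 fold change was -0.06 (SE 0.173, edgeR p = 0.735, exact permutation p = 0.937), with an interval from -0.43 to 0.31. The sign turned without Scr replicate 1 (0.041) and without Scr replicate 2 (0.070). Gm38070 overlaps it on the same strand.

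Tlr4 (ENSMUSG00000039005, chr4:66827584-66930284, plus strand) encodes the receptor for HMGB1 and for bacterial lipopolysaccharide. It was at 1.55, 1.82, 1.32, 2.10 and 1.46 CPM in Ant-134 replicates 1 to 5. Values in Scr replicates 1 to 4 were 1.88, 1.06, 1.76 and 1.87 CPM. Scr replicate 2 was the lowest of all 9 mice and the other Scr mice lay among the Ant-134 mice. Between the groups the log2 fold change was 0.01 (SE 0.212, edgeR p = 0.948, exact permutation p = 0.952), on counts of 37 to 70. Its interval was from -0.44 to 0.47, and differences of either sign within it are not excluded.

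Nlrp3 (ENSMUSG00000032691, chr11:59541568-59566956, plus strand) encodes the sensor of the inflammasome. In Ant-134 replicates 1 to 5 it was at 2.01, 1.79, 2.42, 2.65 and 1.39 CPM. In Scr replicates 1 to 4 it was at 3.51, 2.48, 2.70 and 2.37 CPM. Ant-134 replicates 1, 2 and 5 were below every Scr mouse, whereas Ant-134 replicates 3 and 4 lay among them. The mean was 2.05 ± 0.501 CPM (SD, n = 5) against 2.77 ± 0.514 CPM (n = 4), a log2 fold change of -0.43 (SE 0.196, edgeR p = 0.0452, adjusted p = 0.998, exact permutation p = 0.0873). The edgeR p value stayed below 0.05 in 4 of the 9 fits that left out 1 mouse. Without Scr replicate 1, the highest mouse, the log2 fold change was -0.30, and without Ant-134 replicate 5, the lowest, it was -0.32. Neither passed the threshold, and the other 3 fits in which the call was lost were without Ant-134 replicate 1 (-0.42), without Ant-134 replicate 2 (-0.38) and without Scr replicate 3 (-0.44). The call was also lost in limma on log2(FPKM + 1) and on log2(FPKM + 0.1).

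Casp1 (ENSMUSG00000025888, chr9:5298517-5307265, plus strand) encodes the protease that cleaves the interleukin-1 beta precursor. It was at 1.58, 3.17, 1.89, 1.90 and 1.92 CPM in Ant-134 replicates 1 to 5. Values in Scr replicates 1 to 4 were 2.51, 2.13, 2.05 and 2.87 CPM. The Ant-134 mice other than replicate 2 were below every Scr mouse, and replicate 2 was above every Scr mouse. Over all mice the log2 fold change was -0.18 (SE 0.205, edgeR p = 0.389, exact permutation p = 0.333). Without Ant-134 replicate 2 it was -0.39 and passed the unadjusted threshold, so this 1 mouse decided the call. The log2 fold change was -0.082 without Scr replicate 4 and -0.094 without Ant-134 replicate 1.

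Nfkbia (ENSMUSG00000021025, chr12:55489410-55492647, minus strand) encodes the NF-kappaB inhibitor I-kappa-B alpha, whose own transcription follows NF-kappaB activity. In Ant-134 replicates 1 to 5 it was at 25.2, 25.6, 22.8, 19.5 and 28.95 CPM. In Scr replicates 1 to 4 it was at 20.4, 24.0, 26.1 and 26.8 CPM, and the groups overlapped over nearly their whole range. The log2 fold change was 0.0048 (SE 0.107, edgeR p = 0.965, exact permutation p = 1.000), with the narrowest interval among the receptors, inflammasome genes and inhibitor, from -0.23 to 0.24. Ant-134 replicate 5, the mouse with the most Nfkbia, also had Fos, an early gene of neuronal activity, at 31.0 CPM against 10.1 to 15.9 in the other 8 mice. Whether this bears on Nfkbia was not tested.

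**Figure D3:**
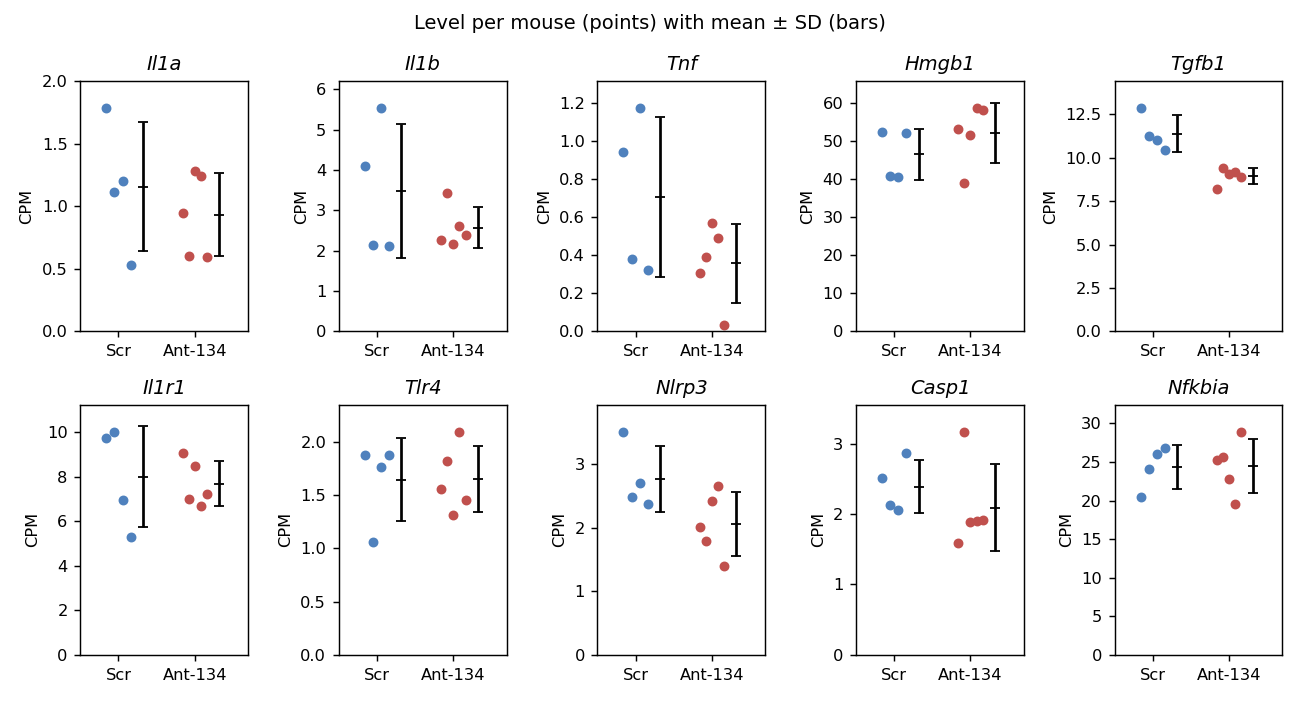
CPM of each gene in every mouse, with the group mean and SD as a bar beside the points and axes from 0. The 5 Ant-134 mice are below the 4 Scr mice for Tgfb1, whereas for the other 9 genes the groups overlap.

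**Figure D4:**
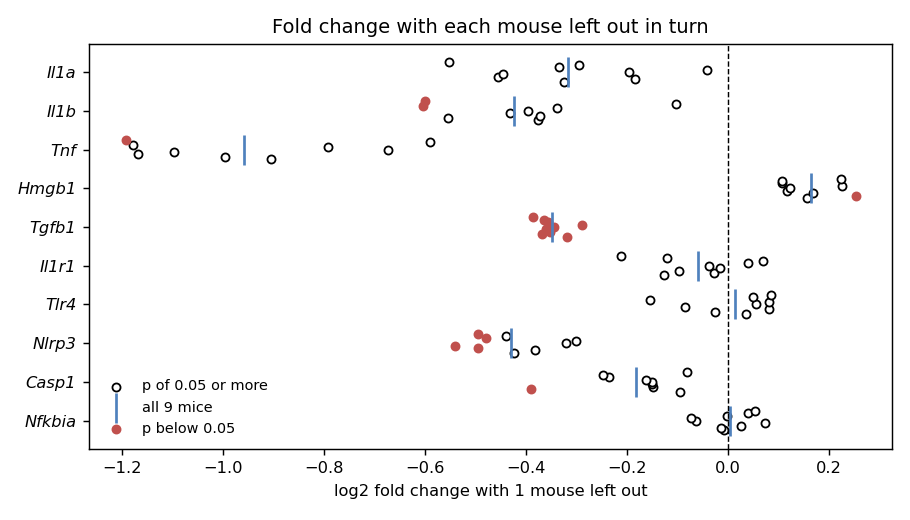
Log2 fold change of each gene, Ant-134 against Scr, with each of the 9 mice left out in turn, where filled red points have an edgeR p value below 0.05 and the blue bar is the value from all mice. The points of Tgfb1 lie between -0.39 and -0.29 and are all red, those of Nlrp3 are red in 4 of 9 fits, and those of Il1r1, Tlr4 and Nfkbia fall on both sides of 0.

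Promoters were examined because NF-kappaB drives several of these genes and some of them moved in the same direction. RefSeq promoters of GRCm38.p6, from 250 bases before to 50 after a transcription start, were held for 9 of the 10 genes, with 2 promoters each for Il1r1, Hmgb1 and Nlrp3 and 12 in all. A match to the NF-kappaB consensus on either strand was found in 4 of the 12, 1 each of Il1r1, Tgfb1, Nlrp3 and Nfkbia, and in 8.46% of all 32851 promoters. The matches begin at positions -232, -140, -186 and -29 relative to the start that each promoter belongs to, which for Il1r1 is an internal start within the gene given above, and lie at chr1:40266354-40266363, chr7:25686862-25686871, chr11:59541383-59541392 and chr12:55492667-55492676. They are printed in the direction of the gene with the match in capitals.
Il1r1 promoter: gggattttGGAATGCCCCcaaggaga
Tgfb1 promoter: gggctgaaGGGACCCCCCttggagcc
Nlrp3 promoter: cttctgcaGGGAACCCCCgggaattc
Nfkbia promoter: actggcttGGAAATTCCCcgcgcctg
Both genes that were lower, Tgfb1 and Nlrp3, held a match, and so did Il1r1 and Nfkbia, which did not pass the threshold. Il1a, Il1b, Tnf, Hmgb1 and Casp1 held none in this window.

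Further genes of the same pathways were taken from 7 lists drawn up with earlier results of these data known. Shares above those of all genes are therefore not independent support. The lists held 115 genes, of which 110 passed the filter. Of these, 12 were lower at an unadjusted edgeR p value below 0.05 (10.9%) and 0 were higher, beside 2.69% and 1.49% of all genes tested. A negative log2 fold change was found for 77, beside 48.8% of all genes, and the median was -0.10 against 0.0026. The same shares stand beside the counts of each list below. The interleukin-1 list was level, with 0 of 21 genes past the threshold in either direction and a median of 0.0007. Its most abundant gene per length, Tollip, an inhibitor of receptor signaling, had a log2 fold change of 0.03 (SE 0.0416). Of the 11 inflammasome genes tested 0 passed, with a median of -0.07. This median moved to -0.012 when Ant-134 replicate 3 was left out, and to -0.16 for Ant-134 replicate 4. The most abundant gene of this list per length, Txnip, which binds NLRP3, was at -0.19 (SE 0.0907, edgeR p = 0.0537, exact permutation p = 0.143).

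In the TNF receptor list 2 of 16 genes were lower, with a median of -0.11. Tnfrsf1b, the second TNF receptor, was at 7.06 ± 0.972 CPM in Ant-134 and 9.56 ± 1.35 CPM in Scr (SD), a log2 fold change of -0.44 (SE 0.122, edgeR p = 0.00284, exact permutation p = 0.0317). Casp8, the initiator caspase of death receptors, fell by 0.45 on the log2 scale (SE 0.150, edgeR p = 0.00952, exact permutation p = 0.0476). Both calls held in all 18 alternatives. Birc2, a ubiquitin ligase of the receptor complex and the most abundant gene of the list per length, was at -0.10 (SE 0.0598, edgeR p = 0.102, exact permutation p = 0.151). In the list around TLR4 and HMGB1, Cd180, a TLR-related surface protein of myeloid cells and B cells, fell by 0.69 (SE 0.248, edgeR p = 0.0169, exact permutation p = 0.0476), as 1 of 13 genes with a median of -0.19. Cd14, the co-receptor of TLR4 and the most abundant gene of this list per length, had a log2 fold change of -0.22 (SE 0.139, edgeR p = 0.146, exact permutation p = 0.325).

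Besides Tgfb1 itself, 5 of 21 genes of TGF-beta signaling were lower, with a median of -0.09. Eng, an accessory receptor of endothelium, was at 19.7 ± 1.11 CPM in Ant-134 against 24.2 ± 3.67 CPM in Scr (log2 fold change -0.29, SE 0.0905, edgeR p = 0.00596, exact permutation p = 0.0476). Smad6, an inhibitory SMAD, fell by 0.56 (SE 0.178, edgeR p = 0.00721, exact permutation p = 0.0476), and the call for each of them held in all 18 alternatives. Ltbp1 and Ltbp3, which bind latent TGF-beta, fell by 0.27 and 0.18 (edgeR p = 0.0248 and 0.0270, exact permutation p = 0.00794 and 0.0794), and for Ltbp1 every Ant-134 mouse was below every Scr mouse. In the other lists the same held only for Map3k14, a kinase of the NF-kappaB pathway (log2 fold change -0.12, edgeR p = 0.239, exact permutation p = 0.00794). The reverse held only for Panx1, a channel of the inflammasome list, with every Ant-134 mouse above every Scr mouse (0.09, edgeR p = 0.146, exact permutation p = 0.00794). Over all genes tested, 0.895% had every Ant-134 mouse below every Scr mouse and 0.647% had the reverse. The exact test cannot give a p value below 0.00794. Tgfbr2, the ligand-binding receptor, fell by 0.24 (edgeR p = 0.0301, exact permutation p = 0.103). The other ligands had values of 0.11 for Tgfb2 (edgeR p = 0.271, exact permutation p = 0.397) and 0.06 for Tgfb3 (edgeR p = 0.512, exact permutation p = 0.508), and the most abundant gene of the list per length, the repressor Ski, was at 0.02.

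In the NF-kappaB list 1 of 14 genes was lower, Ikbke, a kinase of the pathway, at -0.33 (SE 0.150, edgeR p = 0.0441, exact permutation p = 0.0635), with a list median of -0.10. Nfkbib, the most abundant of them per length, was at -0.11 (edgeR p = 0.125, exact permutation p = 0.135). Among 14 tested inflammatory target genes 3 were lower, with a median of -0.27. Ccl3, a chemokine of activated microglia, was at 0.660 ± 0.295 CPM in Ant-134 and 1.43 ± 0.630 CPM in Scr, a fall of 1.11 on the log2 scale (SE 0.354, edgeR p = 0.00724, exact permutation p = 0.0317). Ccl4, its close relative, fell by 0.77 (SE 0.342, edgeR p = 0.0413, exact permutation p = 0.103), and Csf1, a growth factor of microglia, fell by 0.23 (SE 0.0875, edgeR p = 0.0190, exact permutation p = 0.0714). Ptgs2, the inducible cyclooxygenase, had a positive log2 fold change of 0.22 (SE 0.105, edgeR p = 0.0521, exact permutation p = 0.143) and passed the threshold as higher in 7 of 18 alternatives. Socs3, an inhibitor of cytokine signaling, was at 0.59 (SE 0.305, edgeR p = 0.0848, exact permutation p = 0.127) and passed as higher in 3. Of the calls in these lists, those of Ltbp1, Ltbp3, Tgfbr2, Ikbke and Ccl4 held in 9 to 12 of 18 alternatives. Lcn2, the most abundant per length, was at -0.50 with a wide error (SE 0.561). Il6, a cytokine raised by the same pathways, did not pass the filter, at 0.0293 CPM in Ant-134 and 0.0475 CPM in Scr, below the 0.0715 to 0.105 CPM that 3 counts make in these libraries.

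**Figure D5:**
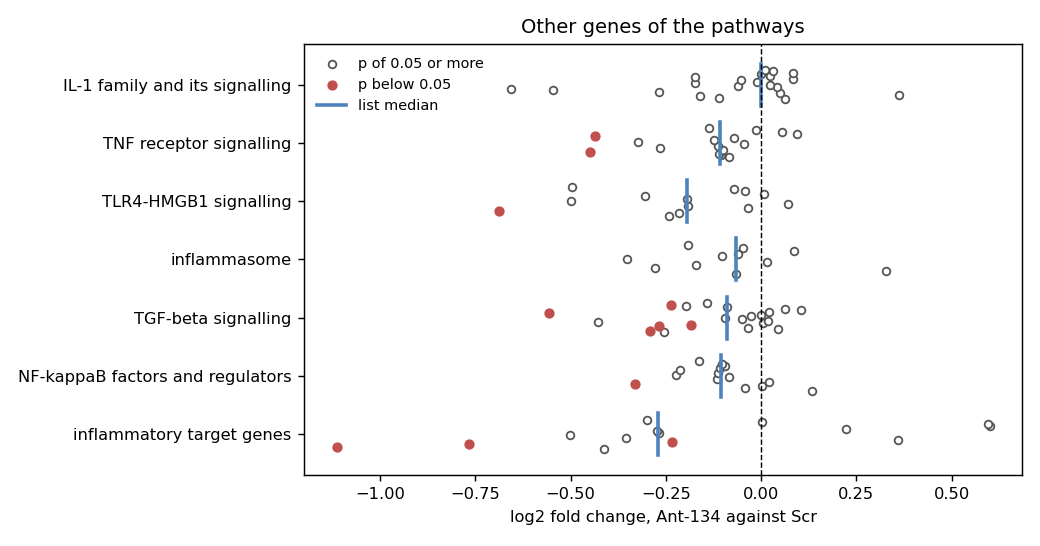
Log2 fold change, Ant-134 against Scr, of the 110 tested genes of the 7 pathway lists, the 10 genes above not included. Filled red points have an edgeR p value below 0.05, all 12 of them below 0, and blue bars are the list medians, from -0.27 for the inflammatory target genes to 0.0007 for the interleukin-1 list.

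Several of the 10 genes are expressed by microglia, and markers of these cells moved with the groups. The marker lists, too, were drawn up with earlier results of these data known. All 18 microglia markers had a negative log2 fold change, with a median of -0.18, and 7 of them were lower at an edgeR p value below 0.05, beside 48.8% and 2.69% of all genes tested. Their summed level was between 599 and 640 CPM in Ant-134 and between 669 and 770 CPM in Scr, without overlap, and none was at 0. The most abundant per length, C1qb, a chain of complement C1q, was at 61.4 ± 3.52 FPKM against 67.4 ± 4.45 FPKM (SD). Markers of meningeal fibroblasts were also lower, 5 of 7 past the threshold with a median of -0.48, on sums of 95.6 to 174 CPM in Ant-134 and 148 to 198 CPM in Scr. All 8 endothelial markers were negative with a median of -0.15, and 0 passed. Of 8 border macrophage markers 2 were lower, and of 6 tested markers of monocytes and neutrophils 0 passed. All 5 erythrocyte genes had a positive log2 fold change, with a median of 1.01 (0.23 without Ant-134 replicate 3) on sums of 69.0 to 403 CPM in Ant-134 and 44.0 to 91.7 CPM in Scr, and 0 passed. Astrocyte and choroid plexus markers held 0 genes past the threshold, and neuronal lists lay on the positive side. All 7 neuronal markers had a positive log2 fold change, with a median of 0.04 and 1 gene past the threshold (Snap25), as did 6 of 7 markers of principal neurons, with a median of 0.12 and 1 gene past it (Dsp). Of 11 activity-regulated genes 10 were positive, with a median of 0.15 (-0.028 without Ant-134 replicate 5), and 0 passed.

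Relative to the median deviation of the microglia markers in each mouse, the mean log2 difference of Tgfb1 was -0.15 (exact permutation p = 0.0238) against -0.34 without this reference. For Nlrp3 it was -0.24 (exact permutation p = 0.222) against -0.43 without it. Il1r1 changed sign, to 0.17 (exact permutation p = 0.444), and Hmgb1 was at 0.35 (exact permutation p = 0.0794). Il1a, Il1b and Casp1 were at -0.051, -0.13 and -0.019 (exact permutation p from 0.706 to 0.913), against -0.24, -0.32 and -0.21 without the reference. Tnf was at -0.65 against -0.84, Tlr4 at 0.21 against 0.018, and Nfkbia at 0.19 against 0.00023 (exact permutation p from 0.310 to 0.349). The reference itself differed between the groups, by -0.19 (exact permutation p = 0.00794), so it moved every gene in the same direction. The part of microglia and of the other cell types in these differences was not tested.

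Within groups, the gene most alike to each member in log2 CPM was sought among 16025 genes over the 9 mice, after group means were removed. The highest Pearson r was with Bcl2l15 for Tgfb1 (0.96), Runx1t1 for Nlrp3 (0.99), Kif2a for Tlr4 (0.99), Cela1 for Il1b (0.95) and Dmpk for Il1r1 (0.96). The lowest of the 10 values was 0.939, for Hmgb1 with Muc3a, and these values, the highest of a search over many genes in few mice, are given as a description. Among the 10 genes themselves, with the groups pooled, 45 pairs were correlated over the 9 mice, of which 6 had an exact permutation p below 0.05 and 0 after Benjamini-Hochberg adjustment. Tnf and Nlrp3 were the pair with the smallest p value, with a Pearson r of 0.86 (exact permutation p = 0.00554, adjusted p = 0.186) and a Spearman rho of 0.82 (exact permutation p = 0.0108, adjusted p = 0.194), and r was 0.81 without the 2 mice farthest from the median of Tnf.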

How the data were processed

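Hippocampal RNA-seq libraries of 9 mice, 5 Ant-134 and 4 Scr, were grouped by their labels, with 1 library per mouse. Per the labels and the submitters' processing notes, base calls were made with CASAVA 1.8, reads were aligned to mm10 with HISAT2 2.0.5, and the authors counted them per gene with featureCounts 1.5.0-p3. The deposited counts are not normalized, and the deposited FPKM values scale them by gene length and library total. The strand setting of the counting is not given in the sources used here.

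The counts were tested with edgeR 4.0.16 in R 4.3.3 (filterByExpr with a minimum count of 10, TMM scaling, robust quasi-likelihood test without covariates). Genes were called at an unadjusted p value below 0.05, the threshold of the study. CPM values are TMM-normalized. Differences were also tested by exact two-sided permutation of mean log2(CPM + 0.1) over all splits of the mice. The scripts were tested on simulated data. Libraries held 28583298 to 41978113 counts, and 3 counts, the floor, correspond to 0.0715 to 0.105 CPM, which covers counting error alone. Every pair of libraries in a group differed by more than sampling noise.

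Alternatives were DESeq2 1.42.0 without a filter before the fit, its size factors in edgeR, edgeR unfiltered, edgeR on genes with 10 or more counts in each library, edgeR not robust, a replicate block, a covariate of Y-linked levels, each mouse left out, and limma 3.58.1 on log2(FPKM + 1) or log2(FPKM + 0.1) where the mean was 0.1 FPKM or more. DESeq2 applied its default filtering of low genes at the adjustment. With a pseudocount, fold changes of low genes are understated. The microglia reference was added after seeing the data.

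The 10 genes and all lists were chosen with earlier results of these data known. Named pathway genes were the 4 with the smallest p value below 0.05 in each list and the most abundant per length. Tgfbr2, Tgfb2, Tgfb3, Il6, Panx1, Map3k14, Ptgs2, Socs3 and Hmgb1-ps2, as well as Snap25 and Dsp, lie outside this rule and were named after their values were seen. Gene positions and 3' UTRs are from GENCODE M21 (GRCm38), and miRNA and promoter sequences from RefSeq (GRCm38.p6).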

Additional observations from a re-analysis of the deposited data

Results flagged for a closer look

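In 6 of 58 groups of values examined, 1 mouse lay further from the others than Dixon's 95% criterion allows, where chance alone gives about 2.9. Tlr4 in Scr replicate 2 was at 1.06 CPM, against 1.76 to 1.88 in the other Scr mice. Casp1 in Ant-134 replicate 2 was at 3.17 CPM, against 1.58 to 1.92 in the other Ant-134 mice. The summed level of the inflammatory target genes was 455 CPM in Ant-134 replicate 1, against 290 to 321 in the others of its group. The same mouse had 2571 CPM of choroid plexus markers, against 66.9 to 679. Ant-134 replicate 3 had 403 CPM of erythrocyte genes, against 69.0 to 116. Ant-134 replicate 5 had 616 CPM of activity-regulated genes, against 406 to 459. The causes were not tested.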

How the results depend on the processing

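No member passed adjustment in any of the 18 alternatives. Tgfb1 stayed lower with an unadjusted p value below 0.05 in all 18, with log2 fold changes from -0.39 to -0.23 and adjusted p values from 0.177 to 1.000, and Nlrp3 in 10 of 18, with adjusted p values from 0.832 to 1.000. Of 179 values of the 10 genes, 154 kept their direction and side of the threshold. The number of members called lower was 1 in limma on log2(FPKM + 1) and on log2(FPKM + 0.1), and 1 to 4 with a mouse left out, while that of members higher was 0 to 1. Of all genes, 1211 were lower and 564 higher without a filter, 462 and 475 were higher with the limma fits, and 435 to 704 were lower and 194 to 386 higher with a mouse left out. Pathway genes called lower were 7 in limma on log2(FPKM + 1), 7 on log2(FPKM + 0.1) and 8 to 18 with a mouse left out. Pathway genes called higher were 1 in DESeq2, 1 with its size factors, 1 without a filter, 1 without robust estimation and 0 to 1 with a mouse left out. The genes so called were Ptgs2 in 7 alternatives and Socs3 in 3. With a mouse left out, list medians ranged from -0.016 to 0.018 for interleukin-1, -0.13 to -0.054 for TNF, -0.22 to -0.15 for TLR4 and HMGB1, -0.16 to -0.012 for the inflammasome, -0.12 to -0.060 for TGF-beta, -0.12 to -0.081 for NF-kappaB, -0.36 to -0.18 for inflammatory targets, -0.21 to -0.12 for microglia, -0.57 to -0.37 for meningeal fibroblasts, -0.23 to -0.085 for endothelium and 0.23 to 1.20 for erythrocytes. Replicate numbers did not pair the mice (correlations of deviations -0.15, -0.07, -0.05 and 0.05), and with the replicate block 1 member was lower and 1 pathway gene higher, Nlrp3 was at -0.32 (edgeR p = 0.135) and Nfkbia reversed to -0.063. Directions that reversed belonged to genes near 0. Il1r1 was at 0.041 without Scr replicate 1 and 0.070 without Scr replicate 2, in a range from -0.21 to 0.070 with a mouse left out, and at 0.17 relative to microglia. Tlr4 was at -0.011 with the Y-linked covariate, and with a mouse left out it ranged from -0.15 to 0.085, while Nfkbia ranged from -0.073 to 0.074. The causes were not tested. For members whose interval spans 0, differences of either sign within it are not excluded with 5 and 4 mice. For Tnf and Il1a, at under 60 counts, the spread between mice exceeded that of counting.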
